A study of Mus musculus with 2 samples.

Results

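The 8 genes described here encode the colony stimulating factors *Csf1*, *Il34*, *Csf2* and *Csf3* and the receptor chains *Csf1r*, *Csf2ra*, *Csf2rb* and *Csf2rb2*. They were taken by name from the 22337 genes of a single-cell expression table and followed through 14 annotated cell types and 6 transplanted hearts. *Csf1* encodes macrophage colony stimulating factor (M-CSF), and interleukin 34, the product of *Il34*, binds the same receptor tyrosine kinase, which *Csf1r* encodes. Signals through this receptor keep monocytes and macrophages alive and drive their differentiation. *Csf2* encodes granulocyte-macrophage colony stimulating factor (GM-CSF), which binds an alpha chain from *Csf2ra* and a common beta chain from *Csf2rb*. The common beta chain also serves the receptors for interleukin 3 and interleukin 5, while *Csf2rb2* encodes a beta chain found in mice that pairs with the interleukin 3 receptor. *Csf3* encodes granulocyte colony stimulating factor (G-CSF), a growth and mobilization signal for neutrophils. The receptor gene for G-CSF, *Csf3r*, enters below as a neutrophil marker and as a member of a list of related genes.

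The samples were Bm12 mouse hearts that either carried Il33 (labelled BM12 WT, called IL-33+; hearts 1, 2 and 3) or lacked it (labelled IL33 KO, called IL-33-; hearts 4, 5 and 6). Each had been placed in a B6 recipient and was collected at postoperative day 14. Bm12 and B6 mice differ at an MHC class II gene, so that every graft in both groups was an allograft, and recipients were of the same strain in both groups. Grafts were perfused and digested, immune cells were recovered from the interphase of a density gradient, and the 6 isolates were tagged with hashing antibodies and sequenced from the 3′ end of transcripts as 1 pooled 10x Genomics library. A gradient interphase does not hold all leukocytes in the proportions of the tissue, and granulocytes in particular can be lost.

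The table held 4441 cells, with 230 to 1666 cells per heart and 908135 to 7012891 unique molecular identifiers (UMIs, each standing for 1 captured transcript) per heart. Cells had 1500 to 14977 UMIs, and median UMIs per cell in a heart were between 3291 and 4458. No cell barcode was repeated. *Il33* did not check the labels: fibroblasts of the IL-33+ hearts had 7, 0 and 121 *Il33* UMIs, and those of the IL-33- hearts had 9, 3 and 5. As CPM (UMIs of a gene scaled to a common total per cell) this was 24.3, 0 and 50.7 against 32.6, 73.8 and 16.1, so the groups are those of the labels. Heart 2 had 10 or fewer cells of 6 types and heart 5 had under 10 cells of 6 types, among them fibroblasts, monocytes and Mo-DCs (cells annotated monocyte-derived dendritic cells) in both.

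*Csf2rb* and *Csf2rb2* are close copies, and whether their reads can be told apart bears on every value given for them. On mm10 (GRCm38) *Csf2rb* lies at chr15:78325752-78353847 on the plus strand and *Csf2rb2* at chr15:78282507-78305721 on the minus strand, with 20030 bases between them. Their coding sequences of 2691 and 2637 bases were identical at 95.3% of 2631 aligned bases. The lines show 60 coding bases of each gene, at coding positions 2564 to 2623 in both, read from the GRCm38 genome at chr15:78349058-78349117 and chr15:78284331-78284390. They are printed to show how alike the copies are, and capitals mark the 4 bases that differ.
Csf2rb: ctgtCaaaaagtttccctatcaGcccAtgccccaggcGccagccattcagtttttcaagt
Csf2rb2: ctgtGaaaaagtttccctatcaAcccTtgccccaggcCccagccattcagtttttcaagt
Reads of a 3′ library come mostly from the ends of transcripts. The 3′ untranslated regions were 85.4% identical over 1716 aligned bases, and none of the 951 windows of 50 bases in the last 1000 bases of either transcript was found whole in the other (0 of 951 in each direction). How reads matching both genes were treated is not given in the sources used here, so the split between these 2 genes carries that uncertainty.

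The other members lie apart from each other. *Csf1* is at chr3:107741048-107760469 (minus strand), *Il34* at chr8:110741829-110805924 (minus), *Csf2* at chr11:54247271-54249667 (minus) and *Csf3* at chr11:98701263-98703629 (plus). *Csf2ra* is at chr19:61223957-61228429 (minus). Promoters of *Csf1*, *Csf2*, *Csf2ra* and *Csf2rb2* from RefSeq (GRCm38.p6; 250 bases before to 50 after the start of a gene) were searched on both strands for GAGGAAG, a core bound by PU.1, the myeloid transcription factor encoded by *Spi1*. It was found at 2 places in *Csf2ra* and 2 in *Csf2rb2*, and at 0 in *Csf1* and *Csf2*, while 13.6% of 32851 promoter windows held it. Promoters of *Il34*, *Csf3*, *Csf1r* and *Csf2rb* were not analysed, so ligands and receptors are not compared. The 30 bases around each match follow, 5′ to 3′ on the strand of the gene, with the match in capitals, or with its reverse complement in capitals where the motif lay on the opposite strand. In *Csf2ra* the matches began 14 and 8 bases before the start (chr19:61228414-61228443 and chr19:61228408-61228437) and shared 1 base. In *Csf2rb2* they began 168 bases before the start and at base 29 after it (chr15:78305871-78305900 and chr15:78305675-78305704).
Csf2ra, first match: aacctgcagatGAGGAAGaggaagcgggag
Csf2ra, next match: cagatgaggaaGAGGAAGcgggagacagac
Csf2rb2, upstream match: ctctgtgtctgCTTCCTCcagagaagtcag
Csf2rb2, downstream match: ggcactggcaaCTTCCTCaatctgctctct
These matches describe the letters of the windows and not binding, which was not measured.

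Cells annotated fibroblasts held the largest share of each ligand's transcripts, and receptor transcripts came mostly from macrophages, monocytes and dendritic cells. Fibroblasts were 8.44% of the cells and held 66.1% of the 867 *Csf1* UMIs, 68.8% of the 16 *Il34* UMIs, 50.8% of the 59 *Csf2* UMIs and 50% of the 64 *Csf3* UMIs. Single hearts weighed on these shares. Without heart 3 fibroblasts held 149 of 337 *Csf1* UMIs (44.2%) and 4 of 33 *Csf3* UMIs (12.1%), and without heart 4 they held 11 of 38 *Csf2* UMIs (28.9%). Macrophages held 55.6% of the 1666 *Csf1r* UMIs and monocytes 25.7%. For *Csf2ra* (1825 UMIs) the shares were 42.8% and 17.3%, and for *Csf2rb* (4244 UMIs) macrophages held 38.4%, conventional dendritic cells (cDCs) 22.2% and monocytes 16.3%. *Csf2rb2* (1094 UMIs) was at 38.1% in macrophages, 21.5% in cDCs and 11.8% in Mo-DCs. The types were annotated from the expression of the same cells, so differences between types are described and not tested.

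**Figure D1:**
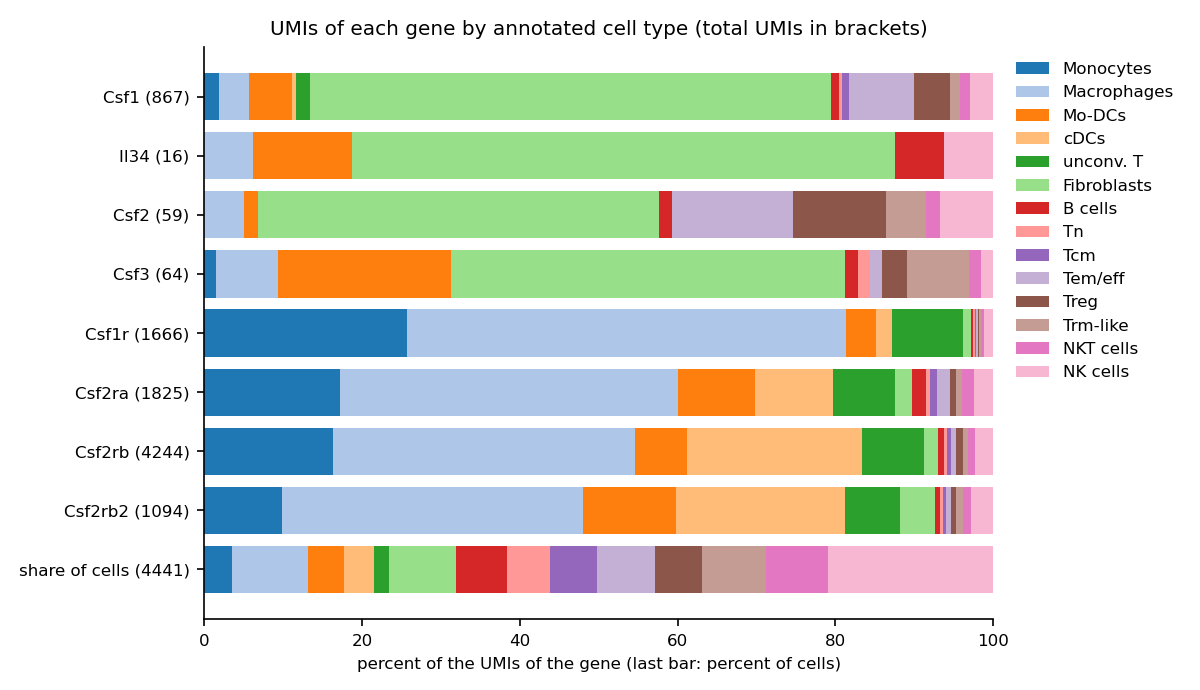
Share of the UMIs of each gene held by each annotated cell type, in percent on the x axis, with the total UMIs of the gene in brackets; the last bar gives the share of the 4441 cells. Fibroblasts make up 66.1% of the *Csf1* bar and 8.44% of the cell bar, and macrophages make up 55.6% of the *Csf1r* bar.

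*Csf1*, the main ligand of the macrophage receptor, was highest in fibroblasts. Each level below is a mean of CPM over cells within a heart and type, averaged in turn over the 6 hearts and given with the SD between hearts. In fibroblasts *Csf1* was at 77.0, 396 and 216 CPM in the IL-33+ hearts and at 91.0, 394 and 323 CPM in the IL-33- hearts, a mean of 250 ± 144 (SD, n = 6). Hearts 1 and 4 were low and hearts 2 and 5, with 6 and 4 fibroblasts, were high, so that the spread ran within each group. Mo-DCs followed at 92.6 ± 71.3 CPM and were below fibroblasts in 4 of 6 hearts, an order that the spread between hearts does not settle. By the rule of at least 2 markers of each of 2 cell classes, 175 of the 375 fibroblasts were candidate doublets, and without candidate doublets *Csf1* was at 139 CPM in fibroblasts and 105 CPM in Mo-DCs. Without the neutrophil-marked cells described below *Csf1* in Mo-DCs was at 35.5 CPM, and without the basophil-marked cells as well it was at 27.6 CPM, below the Treg and Tem/eff means that follow. A *Csf1* UMI was found in 48.0% of fibroblasts at a median of 5789 UMIs per cell and in 2.47% of NK cells at 2712. After each cell was thinned to 1500 UMIs the share in fibroblasts was 21.0%.

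Among T cells, *Csf1* had its highest means in 2 annotated types. Regulatory T cells (Treg) were at 53.7 ± 23.7 CPM, with 40 UMIs in 31 of 263 cells and hearts between 18.9 and 80.2 CPM. Effector and effector memory T cells (Tem/eff) were at 42.3 ± 25.4 CPM, with 71 UMIs in 55 of 327 cells and hearts between 10.2 and 81.1 CPM. Both types were above 0 in every heart, and Treg exceeded Tem/eff in 3 of 6 hearts, so these neighbours cannot be ordered. Resident memory-like T cells (3.61 to 27.6 CPM) and NK cells (5.18 to 16.0 CPM) were also above 0 in every heart, at lower means. Candidate doublets made up 66 of the 263 Treg and 104 of the 327 Tem/eff. Naive T cells (Tn) were at 2.36 CPM and cDCs at 4.58 CPM, the lowest of the 14 types.

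The other 3 ligands were rare. *Il34* was found in 16 cells with 1 UMI each, of which 11 were fibroblasts, and its mean there was 7.72 ± 9.38 CPM. Fibroblasts of hearts 1, 2 and 3 were at 7.81, 24.5 and 2.60 CPM, and those of hearts 4, 5 and 6 at 0, 0 and 11.4 CPM. In heart 2 that value stands for 1 UMI. No *Il34* UMI was found in 9 types, where a count of 0 allows at most 0.829% of the 362 cells annotated resident memory-like T cells (Trm-like) and 3.61% of the 83 unconventional T cells to hold one. These limits and the intervals below cover counting error only.

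*Csf2*, the ligand for the GM-CSF receptor, had 59 UMIs in 25 cells. Of the 30 UMIs in fibroblasts, 29 came from 2 cells, with 19 UMIs in a cell of heart 4 and 10 in a cell of heart 3. Both cells expressed 4 of 5 fibroblast markers. The cell of heart 3 also expressed 2 macrophage markers and was a candidate doublet by the rule above. The mean in fibroblasts was 14.6 CPM with heart 4 and 0.843 CPM without it. Cells annotated as T cells held smaller amounts, with 9 UMIs in 7 Tem/eff and 7 UMIs in 3 Treg. All 7 of these Treg UMIs lay in 16 Treg with 3 or more of 7 ILC2 (group 2 innate lymphoid cell) markers. The other 247 Treg held 0, and the split was made once the values were known. The Tem/eff cell with the most *Csf2* (3 UMIs, heart 3) expressed 0 T cell markers, 3 ILC2 markers and 2 fibroblast markers. No *Csf2* UMI was found in monocytes (0 of 154 cells, which allows up to 1.95%), in cDCs (0 of 171, up to 1.75%) or in 3 further types. *Csf2* passed the filter of the graft comparison in 0 types.

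*Csf3*, the neutrophil growth factor, had 64 UMIs in 30 cells. Fibroblasts held 32 of them in 12 cells, at 13.4 ± 24.1 CPM, with 0, 60.8 and 16.5 CPM in hearts 1, 2 and 3 and 0, 0 and 3.28 CPM in hearts 4, 5 and 6. The 14 UMIs in Mo-DCs all came from 1 cell of heart 6, which set the highest mean of any type (30.02 CPM) from a value of 0 in the other 5 hearts. The order of types for *Csf3* is therefore the order of a few cells.

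**Figure D2:**
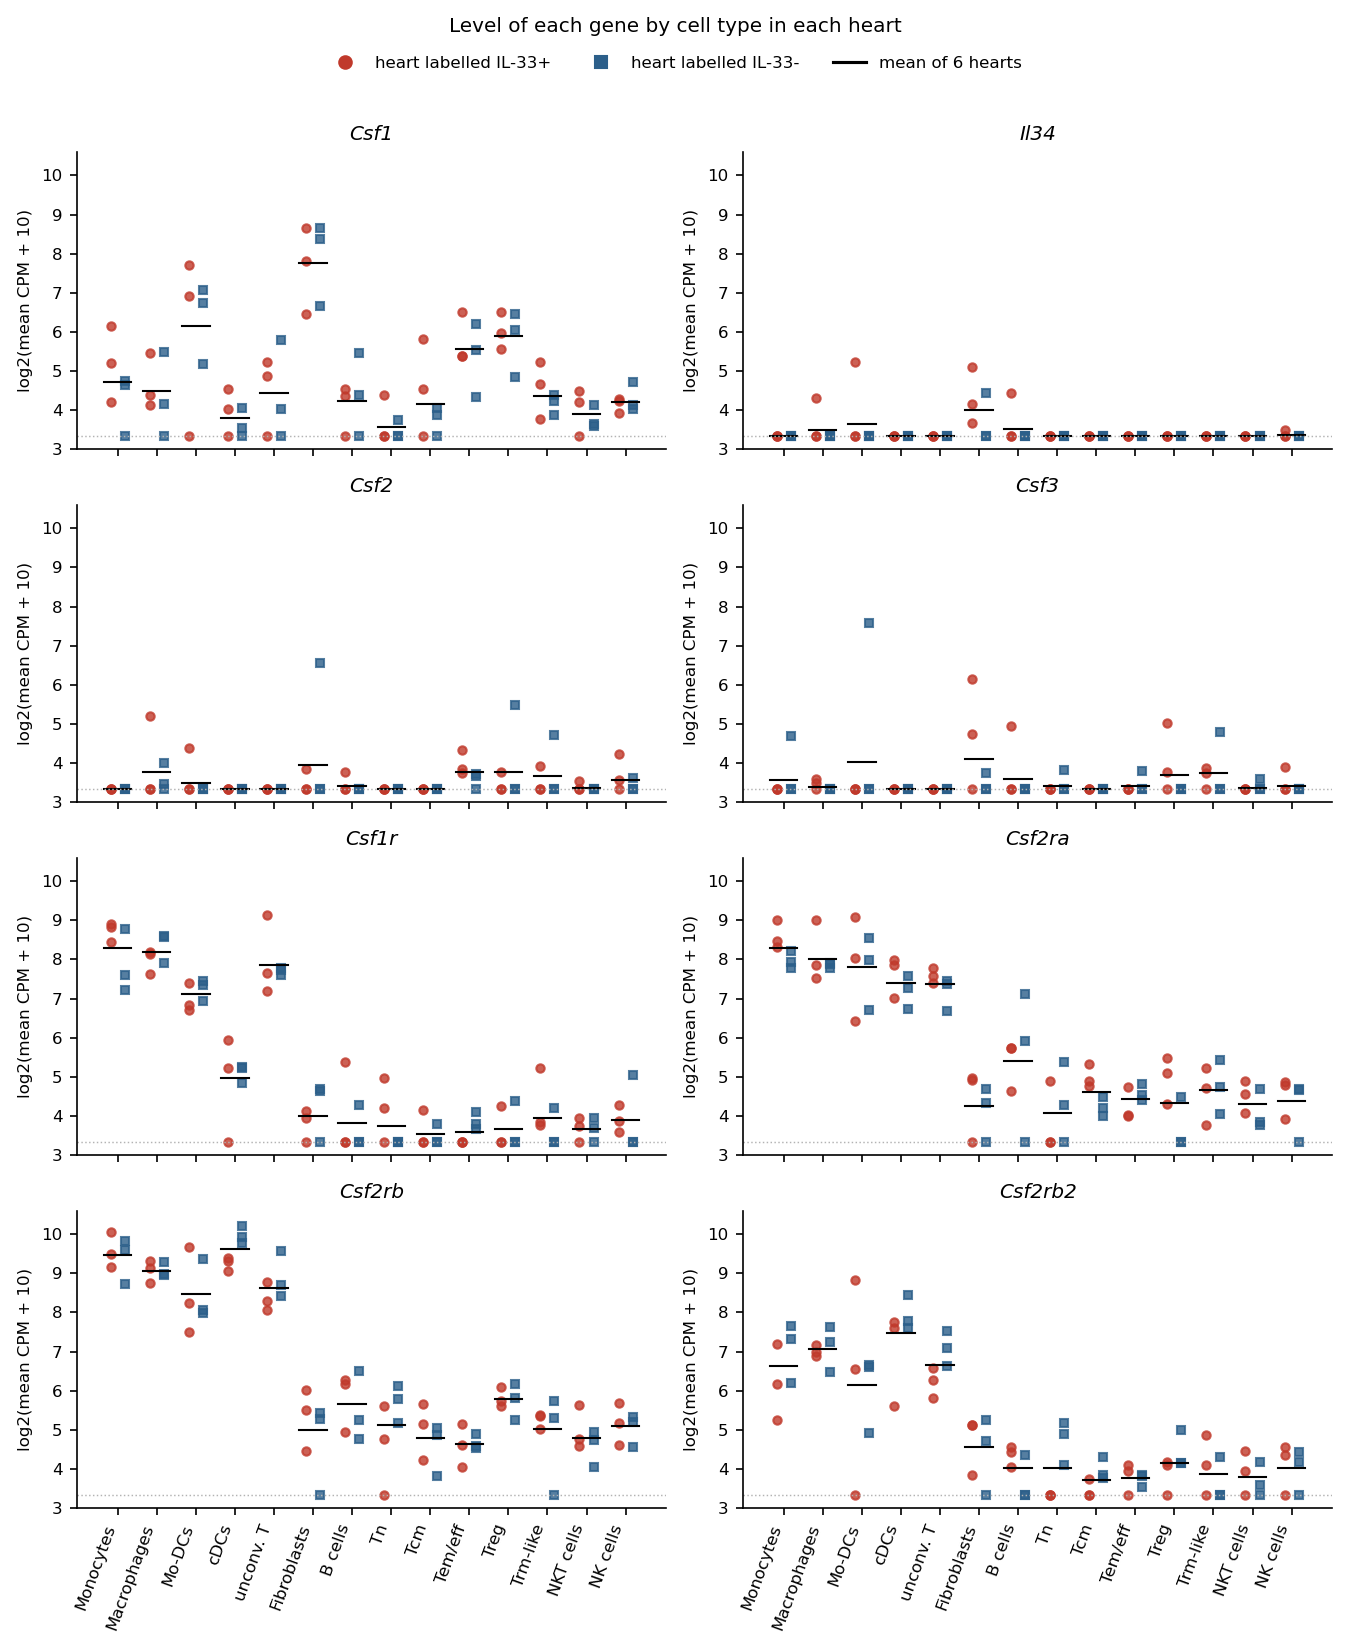
Level of each gene by annotated cell type: log2 of the mean CPM plus 10 on the y axis, with 1 point per heart (circles, hearts labelled IL-33+; squares, hearts labelled IL-33-), a line at the mean of the 6 hearts on this log scale and a dotted line at 0 CPM. The 4 receptor genes stand high in monocytes, macrophages, Mo-DCs, cDCs and unconventional T cells, except for *Csf1r* in cDCs, and *Csf1* stands highest in fibroblasts.

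Fibroblasts fell into parts that differed in their ligands. The cells annotated fibroblasts included 82 that carried at least 2 of 6 endothelial markers (*Pecam1*, *Cdh5*, *Kdr*, *Egfl7*, *Fabp4* and *Emcn*), and 293 others. The 293 held 519 of the 573 *Csf1* UMIs (90.6%), and *Csf1* was higher in them in 5 of the 5 hearts that had both parts. A *Csf1* UMI was found in 52.2% of the 293 cells (95% exact Clopper-Pearson interval 46.3 to 58.1) and in 32.9% of the endothelial-marked cells (22.9 to 44.2). *Csf3* went the other way, with 29 of 32 UMIs in the endothelial-marked cells and a UMI in 10.98% of them (5.14 to 19.8) against 1.02% of the others (0.212 to 2.96). Of those 29 UMIs, 26 were from heart 3 and 3 from heart 2, and 1 cell held 12. Median depth was 5922 and 5678 UMIs. The split was described without a test, since the marker genes come from the same cells.

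*Csf1r*, the receptor for M-CSF and interleukin 34, marked the monocyte and macrophage types. The gene lies at chr18:61100598-61132149 on the plus strand. Monocytes were at 444, 466 and 337 CPM in hearts 1, 2 and 3 and at 429, 140 and 184 CPM in hearts 4, 5 and 6, a mean of 333 ± 141. Macrophages were at 284, 189 and 273 CPM and at 381, 230 and 374 CPM, a mean of 289 ± 76.7. Monocytes exceeded macrophages in 4 of 6 hearts, so the order of these types is within their spread. Unconventional T cells followed at 247 ± 153 CPM and Mo-DCs at 131 ± 31.3 CPM, and unconventional T cells exceeded Mo-DCs in all 6 hearts. cDCs were at 25.6 ± 16.7 CPM, below Mo-DCs in all 6 hearts, and each of the other 9 types was at 7.31 CPM or less.

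Detection followed the levels. A *Csf1r* UMI was found in 89.6% of monocytes, 78.8% of macrophages and 17.0% of cDCs, at medians of 6709, 6606 and 6544 UMIs per cell, and in 1.83% of NK cells, which lack this receptor, at 2712. At 1500 UMIs per cell the shares were 43.7%, 34.8%, 4.32% and 1.14%. The cDC share was above that of NK cells both before and after thinning.

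The *Csf1r* level of the unconventional T cells went together with macrophage markers. Of these 83 cells, 74 carried at least 2 of 8 macrophage markers, and their *Csf1r* mean was 269 CPM against 32.2 CPM in the other 9, which held 3 *Csf1r* UMIs. Macrophage and T cell markers (at least 2 of each) were found together in 48 of the 83 cells, 62 of the 83 were candidate doublets (at least 2 markers of each of 2 cell classes), and median depth was 10175 UMIs, the deepest of the 14 types. The cut at 2 macrophage markers was set with the values known. *Csf2ra*, *Csf2rb* and *Csf2rb2* were not lower in the 9 cells, at 173, 457 and 135 CPM against 158, 388 and 97.4 CPM in the 74 (means over the 4 and 6 hearts that had such cells).

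*Csf2ra*, the GM-CSF alpha chain, was spread more evenly over the myeloid types than *Csf1r*. Monocytes were at 317 ± 107 CPM (311, 510 and 343 in hearts 1, 2 and 3; 290, 210 and 237 in hearts 4, 5 and 6). Macrophages were at 263 ± 121 CPM, where heart 3 was at 506 CPM and the other hearts at 175 to 232 CPM, so that the mean was 214 CPM without heart 3. Mo-DCs were at 262 CPM, cDCs at 168 CPM and unconventional T cells at 160 CPM. Monocytes exceeded macrophages in 4 of 6 hearts and macrophages exceeded Mo-DCs in 2 of 6, so the leading 3 types are not ordered by these hearts. Unconventional T cells exceeded the next type, B cells (46.4 CPM), in all 6 hearts.

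*Csf2rb*, the common beta chain, had the most UMIs of the 8 genes, and its highest level was in cDCs. These were at 666, 629 and 528 CPM in hearts 1, 2 and 3 and at 866, 973 and 1178 CPM in hearts 4, 5 and 6, a mean of 807 ± 244. Every IL-33- heart was above every IL-33+ heart. Monocytes were at 734 ± 231 CPM and macrophages at 534 ± 80.2 CPM, with cDCs above monocytes in 4 of 6 hearts and monocytes above macrophages in 5 of 6. Unconventional T cells (412 CPM) and Mo-DCs (401 CPM) came next, and Mo-DCs exceeded the following type, Treg at 46.2 CPM, in all 6 hearts. A *Csf2rb* UMI was found in 94.2% of monocytes, 85.4% of cDCs and 82.8% of macrophages against 7.09% of NK cells, and thinned shares were 58.2%, 58.6%, 47.3% and 4.10%.

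*Csf2rb2*, the interleukin 3 beta chain, followed *Csf2rb* at lower levels. cDCs were at 194 ± 96.4 CPM, with 184, 38.7 and 204 CPM in hearts 1, 2 and 3 and 210, 342 and 185 CPM in hearts 4, 5 and 6. Heart 2, with 6 cDCs and 3 *Csf2rb2* UMIs, was the low value. Macrophages were at 128 ± 37.4 CPM, Mo-DCs at 121 ± 162 CPM, monocytes at 105 ± 63.2 CPM and unconventional T cells at 98.3 ± 45.4 CPM. In Mo-DCs heart 3 was at 441 CPM, and the mean without it was 56.4 CPM. The step to the next type, fibroblasts at 16.3 CPM, held in all 6 hearts.

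The receptor chains were counted together in each cell. *Csf2ra* and *Csf2rb*, the pair that forms the GM-CSF receptor, were both detected in 120 of 154 monocytes (66.7% to 93.3% by heart), 264 of 429 macrophages (50% to 71.4%), 89 of 171 cDCs, 42 of 204 Mo-DCs and 6 of 931 NK cells. *Csf2ra* without *Csf2rb*, and *Csf2rb* without *Csf2ra*, were found in 6 and 25 monocytes, 44 and 91 macrophages, 9 and 57 cDCs and 51 and 49 Mo-DCs. In Mo-DCs cells with 1 of the 2 transcripts thus outnumbered cells with both. *Csf1r* and *Csf2rb* were both detected in 129 of 154 monocytes and 281 of 429 macrophages, and in 22 of 171 cDCs, where 124 cells had *Csf2rb* alone. Of the UMIs of these 2 genes together, *Csf1r* made up 38.2% in monocytes, 36.3% in macrophages and 3.48% in cDCs. *Csf2ra* made up 52.0% of the *Csf2ra* and *Csf2rb* UMIs in macrophages of heart 3 and 23.6% to 30.1% in those of the other 5 hearts. *Csf2rb2* made up 13.5% of the *Csf2rb* and *Csf2rb2* UMIs in monocytes, 20.4% in macrophages, 19.97% in cDCs and 31.7% in Mo-DCs. Heart 3 held 116 of the 129 *Csf2rb2* UMIs of Mo-DCs, and the share without it was 16.7% (13 of 78 UMIs). These shares count transcripts of different genes and depend on how well each 3′ end was captured.

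The cells annotated Mo-DCs fell by their markers into 3 groups. For each receptor gene the share of cells with a UMI differed between some of these groups, while the intervals of others overlapped. Of the 204 cells, 48 carried 4 or more of 8 neutrophil markers (4, 1, 28, 12, 2 and 1 in hearts 1 to 6). An *S100a8* UMI was found in 46 of the 48, and mean *S100a8* was 30137 CPM there. At least 1 of 3 basophil markers was found in 14 further cells, 13 of heart 3 and 1 of heart 6. The remaining 142 cells had *S100a8* at 38.4 CPM and the macrophage gene *C1qa* at 900 CPM. The division into 3 was made with the values known and carries no test.

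The 142 remaining Mo-DCs held 63 of 64 *Csf1r* UMIs and exceeded the neutrophil-marked cells in 6 of 6 hearts. *Csf1* was found in 4.93% of those 142 cells (95% exact interval 2.00 to 9.89) and in 22.9% of the neutrophil-marked cells (12.0 to 37.3), which held 26 of the 47 UMIs and were higher in 4 of 6 hearts. *Csf2ra* was found in 70.8% of the neutrophil-marked cells (55.9 to 83.0), 39.4% of the remaining cells (31.3 to 48.0) and 21.4% of the basophil-marked cells (4.66 to 50.8). After thinning, *Csf2ra* was at 59.4% in the neutrophil-marked cells and at 29.99% in the remaining cells, with median depths of 1905 and 2374 UMIs. The *Csf2ra* level was higher in the neutrophil-marked cells in 4 of 6 hearts and lower in 2. The neutrophil-marked cells held 112 UMIs of *Csf3r*, the G-CSF receptor gene and one of the 8 markers that chose them, and 0 UMIs of its ligand *Csf3*.

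The basophil-marked cells carried the beta chains. The 13 cells of heart 3 held 92 *Csf2rb* UMIs and 86 *Csf2rb2* UMIs, and their means were 2726 and 2656 CPM. They were 13 of the 111 Mo-DCs of heart 3 and held 86 of the 116 *Csf2rb2* UMIs of that type and heart. Without the marked cells *Csf2rb2* in Mo-DCs of heart 3 was at 187 CPM. *Csf2rb2* made up 48.0% of the *Csf2rb* and *Csf2rb2* UMIs in the basophil-marked cells, 21.4% in the remaining Mo-DCs and 8.70% in the neutrophil-marked cells. The 13 cells also held 12 UMIs of *Mcpt8*, 22 of *Cd200r3*, 148 of the histidine decarboxylase gene *Hdc* and 0 of *Prss34* and *Cpa3*. The cell of heart 6 held 222 UMIs of *Mcpt4*, 89 of *Cpa3* and 77 of *Cma1*, which are mast cell proteases, with 1 UMI of *Csf2rb* and 0 of *Csf2rb2*. Only 2 of 3 basophil markers were detected, so these cells are described by their markers and given no cell type.

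**Figure D3:**
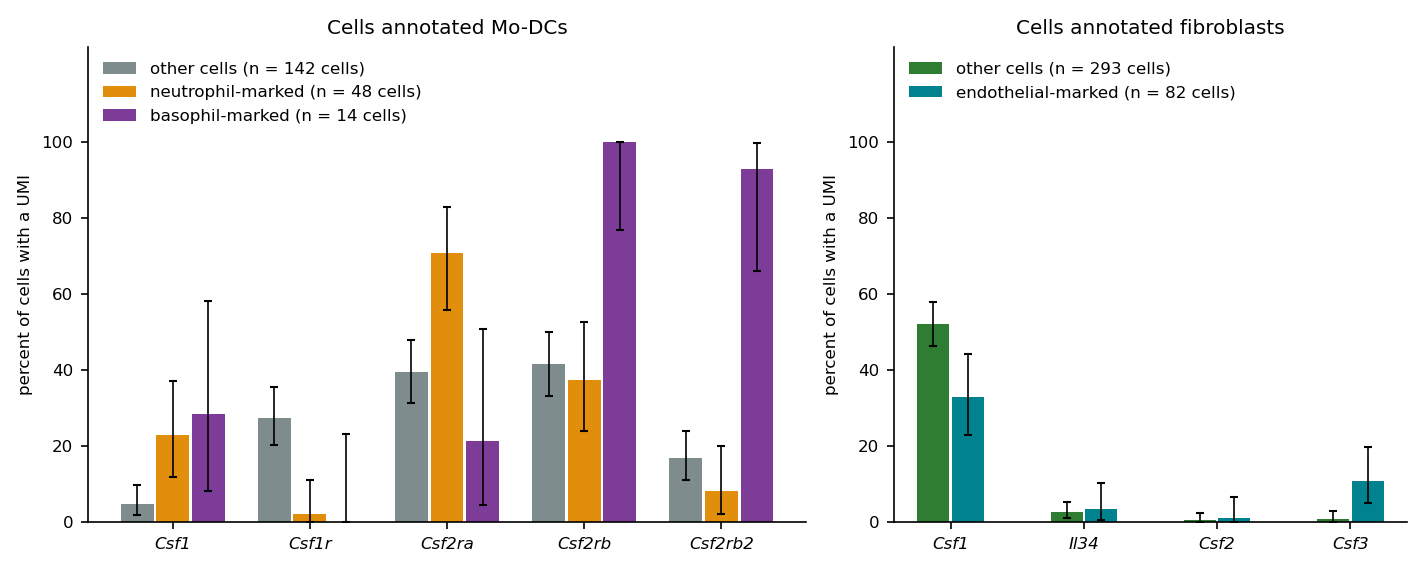
Percent of cells with a UMI of each gene (y axis) in the parts of the cells annotated Mo-DCs (left) and fibroblasts (right), with 95% exact Clopper-Pearson intervals that cover counting error only. *Csf2rb2* was found in 92.9% of the basophil-marked cells and 8.33% of the neutrophil-marked cells, and *Csf3* in 10.98% of the endothelial-marked cells and 1.02% of the other fibroblasts.

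Some genes shared the pattern of a member over the 14 type means (Pearson r on log2 of CPM plus 10, over 11578 genes with at least 50 UMIs; the points share cells, libraries and annotation). *Csf1r* was most like *Fcgr1* (r = 0.99), which encodes the high-affinity receptor for immunoglobulin G, followed by *Gm36161*, *Clec4a1*, *Adap2* and *Igsf6*. The closest to *Csf2ra* were *Spi1* (r = 0.99), *Pld4*, *Pirb*, *Mpeg1* and *Wfdc17*. *Csf2rb* was followed most closely by *Mpeg1* (r = 0.99), which encodes perforin-2, *Plbd1*, *Cds1*, *Cfp* and *Csf2rb2*. *Csf2rb2* in turn was most like *Csf2rb* (r = 0.98), then *Naaa*, *Basp1*, *Cds1* and *Tbc1d9*. *Csf1* was less closely followed, by *Eml1* (r = 0.94), *Tnfsf13b*, *P4ha2*, *Ptgfrn* and *Rassf8*. *Csf2* (*Mapk8ip1*, *Itpkc*, *Cdkl2*, *Dst* and *Fam171b*; r = 0.93 for the first) and *Csf3* (*Nr2f1*, *Mc1r*, *G0s2*, *Inhbb* and *Per3*; r = 0.92 for the first) rest on 59 and 64 UMIs.

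The comparison of IL-33+ with IL-33- grafts asked whether graft-derived IL-33 altered the genes in each cell type. No member passed the threshold in any type tested. The smallest p among them was that of *Csf2rb*, which was at 608 ± 71.4 CPM in cDCs of the IL-33+ hearts and 1006 ± 159 CPM in those of the IL-33- hearts (SD, n = 3). Of 112 gene and type pairs, 55 had enough UMIs to be tested with limma, and 0 had a limma p of 0.05 or less after Benjamini-Hochberg adjustment, against 0.00884% of all 113175 pairs tested (10 calls). The smallest adjusted p of a member was 0.37, and limma-voom also called 0. At an unadjusted p of 0.05 or less, 4 of 55 pairs (7.27%) were found against 4.71% of all pairs. They were *Csf2rb* and *Csf2rb2* in cDCs and *Csf1r* and *Csf2ra* in monocytes.

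Fold changes are on the scale of log2(CPM + 10), IL-33+ over IL-33-. Among the 55 pairs 35 were above 0 and 20 below, and the median was 0.19 against -0.0005 over all pairs. Every IL-33+ heart was above every IL-33- heart in 2 of 55 pairs (3.64%; 4.87% of all pairs), namely *Csf2ra* in monocytes and in central memory T cells (Tcm). Every IL-33+ heart was below every IL-33- heart in 2 pairs (3.64%; 4.95% of all pairs), namely *Csf2rb* in cDCs and *Csf2rb2* in unconventional T cells. These shares lie below those of all pairs. The Tcm and unconventional T cell pairs had limma unadjusted p-values of 0.13 and 0.12 and are named after their values were seen.

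**Figure D4:**
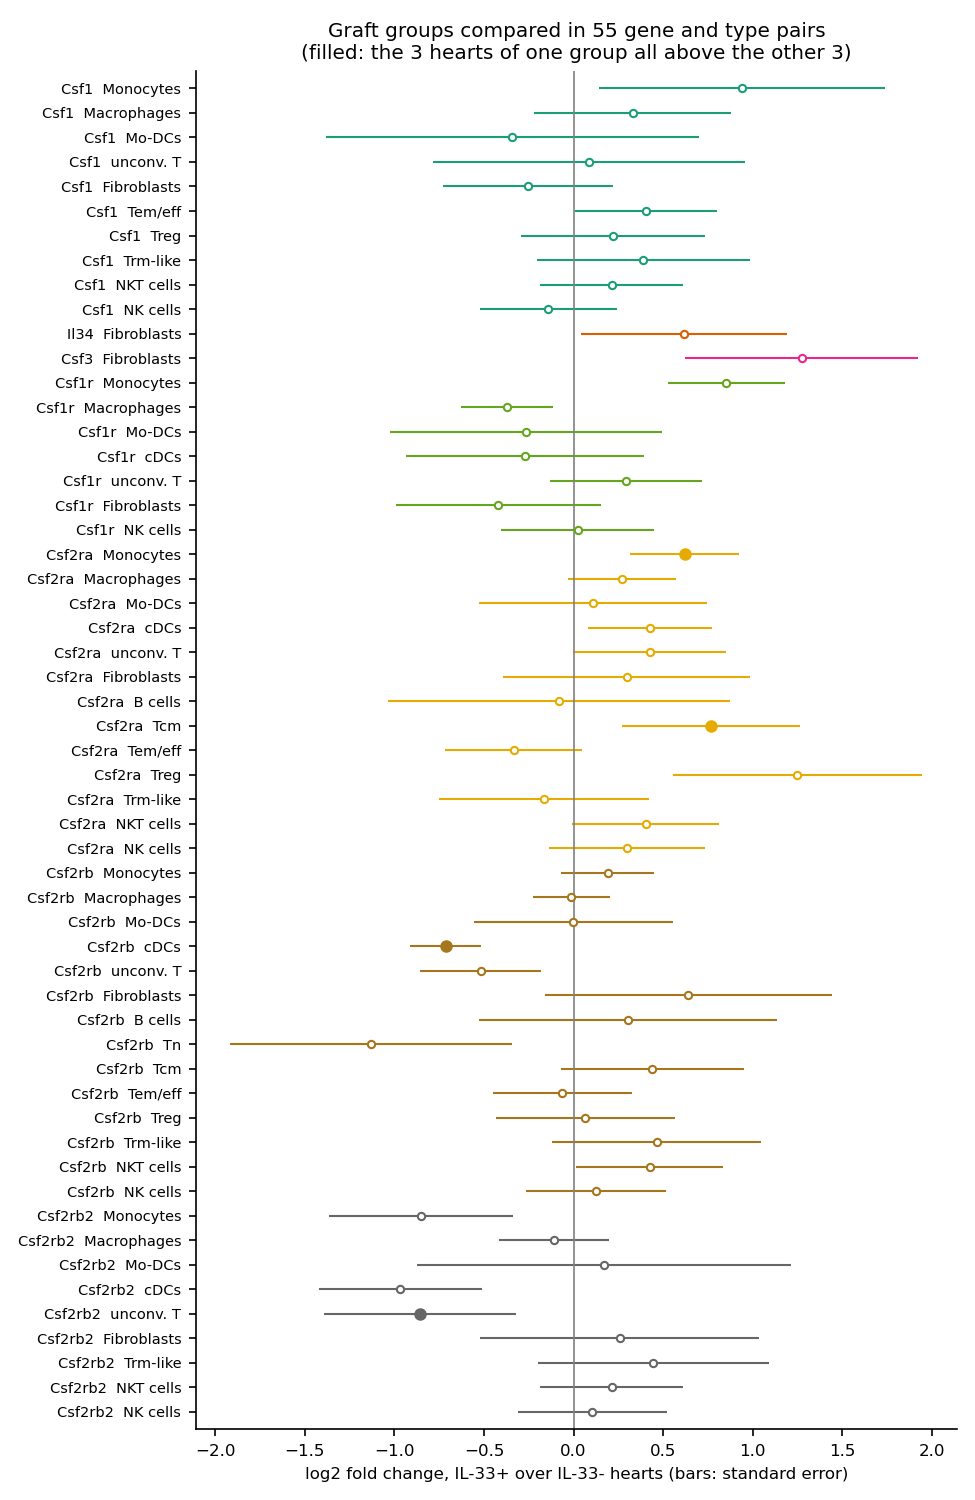
Log2 fold change of IL-33+ over IL-33- hearts (x axis) with its standard error for the 55 tested pairs of gene and cell type, 1 row each, coloured by gene. Filled points mark the 4 pairs in which the hearts of one group all lay above those of the other; the values run from -1.13 to 1.27.

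In cDCs the fold change of *Csf2rb* was -0.71 (SE 0.20, limma unadjusted p = 0.0022, adjusted p = 0.37, two-sided exact permutation p = 0.1, the smallest that 3 against 3 hearts can give). It kept its direction in every alternative setting run, between -0.81 and -0.59, with limma adjusted p between 0.22 and 0.998. *Csf2rb2* was also lower in the IL-33+ cDCs, at 142 ± 90.3 against 246 ± 84.0 CPM (fold change -0.97, SE 0.46, limma adjusted p = 0.73, exact permutation p = 0.2), and its groups overlapped. Without heart 2, which had 6 cDCs, its fold change was -0.28, and with hearts of at least 10 cells it was -0.03.

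Other measures also lay apart between the groups in cDCs, some in the direction of *Csf2rb* and some in the other. *Ccr7*, which encodes the chemokine receptor of migrating dendritic cells, was at 586, 514 and 273 CPM in cDCs of hearts 1, 2 and 3 and at 1164, 886 and 2144 CPM in those of hearts 4, 5 and 6. The summed level of the 6 cDC markers, *Ccr7* among them, was 1057 to 1623 CPM in the IL-33+ hearts and 1774 to 3267 CPM in the IL-33- hearts. In each IL-33- heart *Ccr7* was the highest of the 6. *Flt3* was higher in the IL-33+ hearts (252 to 361 CPM against 222 to 246) and *Zbtb46* was lower (46.4 to 85.8 against 89.9 to 104). For *Xcr1*, *Clec9a* and *Cd209a* the groups overlapped. The 4 T cell markers summed to 32.2 to 70.2 CPM in the IL-33+ and to 0 to 22.2 CPM in the IL-33- hearts. The other marker lists overlapped. Among these, basophil markers were at 0 CPM in every IL-33+ heart and at 49.2, 11.5 and 0 CPM in hearts 4, 5 and 6. A basophil marker was found in 3 of the 171 cDCs. Mast cell markers were at 208 CPM in heart 4 and at 0 to 34.7 CPM in the other hearts. Among 7949 genes tested in cDCs, 585 lay apart with the IL-33+ hearts higher and 406 with them lower. Median depth of cDCs overlapped, at 6214 to 6626 and 6438 to 7599 UMIs.

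When cDCs were split by *Ccr7*, a split made with the values known, the 108 cells without a *Ccr7* UMI had *Csf2rb* at 724, 541 and 539 CPM in the IL-33+ hearts and at 955, 1105 and 1072 CPM in the IL-33- hearts. The groups did not overlap in these cells, of which heart 2 had 3 and heart 5 had 6. In the 63 cells with a *Ccr7* UMI they overlapped, with means of 575 and 912 CPM. The part of *Ccr7* and of the other markers in the *Csf2rb* values was not tested.

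Monocytes gave the other named differences. *Csf1r* was at 416 ± 69.3 CPM in the IL-33+ hearts and 251 ± 156 CPM in the IL-33- hearts (fold change 0.85, SE 0.33, limma adjusted p = 0.97, exact permutation p = 0.2). Heart 4, at 429 CPM, lay among the IL-33+ values, and the low values came from hearts 5 and 6, which had 7 and 12 monocytes. *Csf2ra* was at 388 ± 107 against 245 ± 40.4 CPM (fold change 0.62, SE 0.30, limma adjusted p = 0.97, exact permutation p = 0.1), with groups that did not overlap. Heart 2, at 510 CPM, held 15 *Csf2ra* UMIs in 5 monocytes, and the nearest hearts of the groups were at 311 and 290 CPM. The fold change of *Csf2ra* was 0.31 with hearts of at least 10 cells and 0.26 with limma-voom. *Csf2rb* was at 777 ± 252 against 692 ± 253 CPM (0.19, SE 0.26), and the groups overlapped widely. Among the marker lists in monocytes, those of fibroblasts and NK cells lay apart between the groups and the others overlapped. Summed fibroblast markers were 203 to 211 CPM in the IL-33+ and 29.96 to 160 CPM in the IL-33- hearts. Summed NK cell markers were 23.7 to 43.9 and 45.1 to 189 CPM. The part of these markers in the receptor values was not tested. Among 7123 genes tested in monocytes, 350 lay apart with the IL-33+ hearts higher and 334 with them lower.

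In macrophages no receptor gene among the members separated the groups. *Csf1r* was at 249 ± 52.1 against 328 ± 85.4 CPM (-0.37, SE 0.26, limma adjusted p = 0.99, exact permutation p = 0.3). *Csf2ra* was at 301.7 ± 179 against 224 ± 10.9 CPM (0.27, SE 0.30, limma adjusted p = 0.99), and its direction turned to -0.17 without heart 3. *Csf2rb2* was at 119 ± 13.4 against 137 ± 55.6 CPM (-0.11, SE 0.31, limma adjusted p = 0.99). *Csf2rb*, with 1628 UMIs, was at 533 ± 103 against 534 ± 73.6 CPM (-0.01, SE 0.21). Of the marker lists in macrophages, 3 lay apart between the groups and the others overlapped. Among 9682 genes tested in macrophages, 369 lay apart with the IL-33+ hearts higher and 500 with them lower. Summed fibroblast markers were 235 to 329 CPM in the IL-33+ and 343 to 560 CPM in the IL-33- hearts, endothelial markers 76.0 to 116 and 40.4 to 50.4 CPM, and cDC markers 252 to 345 and 18.3 to 199 CPM. Their part in these values was not tested.

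The ligands did not separate the groups. *Csf1* in fibroblasts was at 230 ± 160 CPM in the IL-33+ and 269 ± 159 CPM in the IL-33- hearts (-0.26, SE 0.47, limma adjusted p = 0.998, exact permutation p = 0.8), and without candidate doublets the fold change was 1.41 (limma adjusted p = 0.9996). In Mo-DCs it was at 103 ± 98.9 against 82.3 ± 51.1 CPM (-0.34, SE 1.04, limma adjusted p = 1.00, exact permutation p = 0.9), where the mean CPM and the mean log2 value differ in direction because heart 2, with 4 Mo-DCs, was at 0. *Csf3* in fibroblasts was at 25.7 ± 31.4 against 1.09 ± 1.90 CPM (1.27, SE 0.65, limma adjusted p = 0.998, exact permutation p = 0.4), from 31 UMIs in hearts 2 and 3 and 1 UMI in heart 6. *Il34* in fibroblasts was at 11.6 ± 11.4 against 3.804 ± 6.59 CPM (0.62, SE 0.58, limma adjusted p = 0.998, exact permutation p = 0.5).

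**Figure D5:**
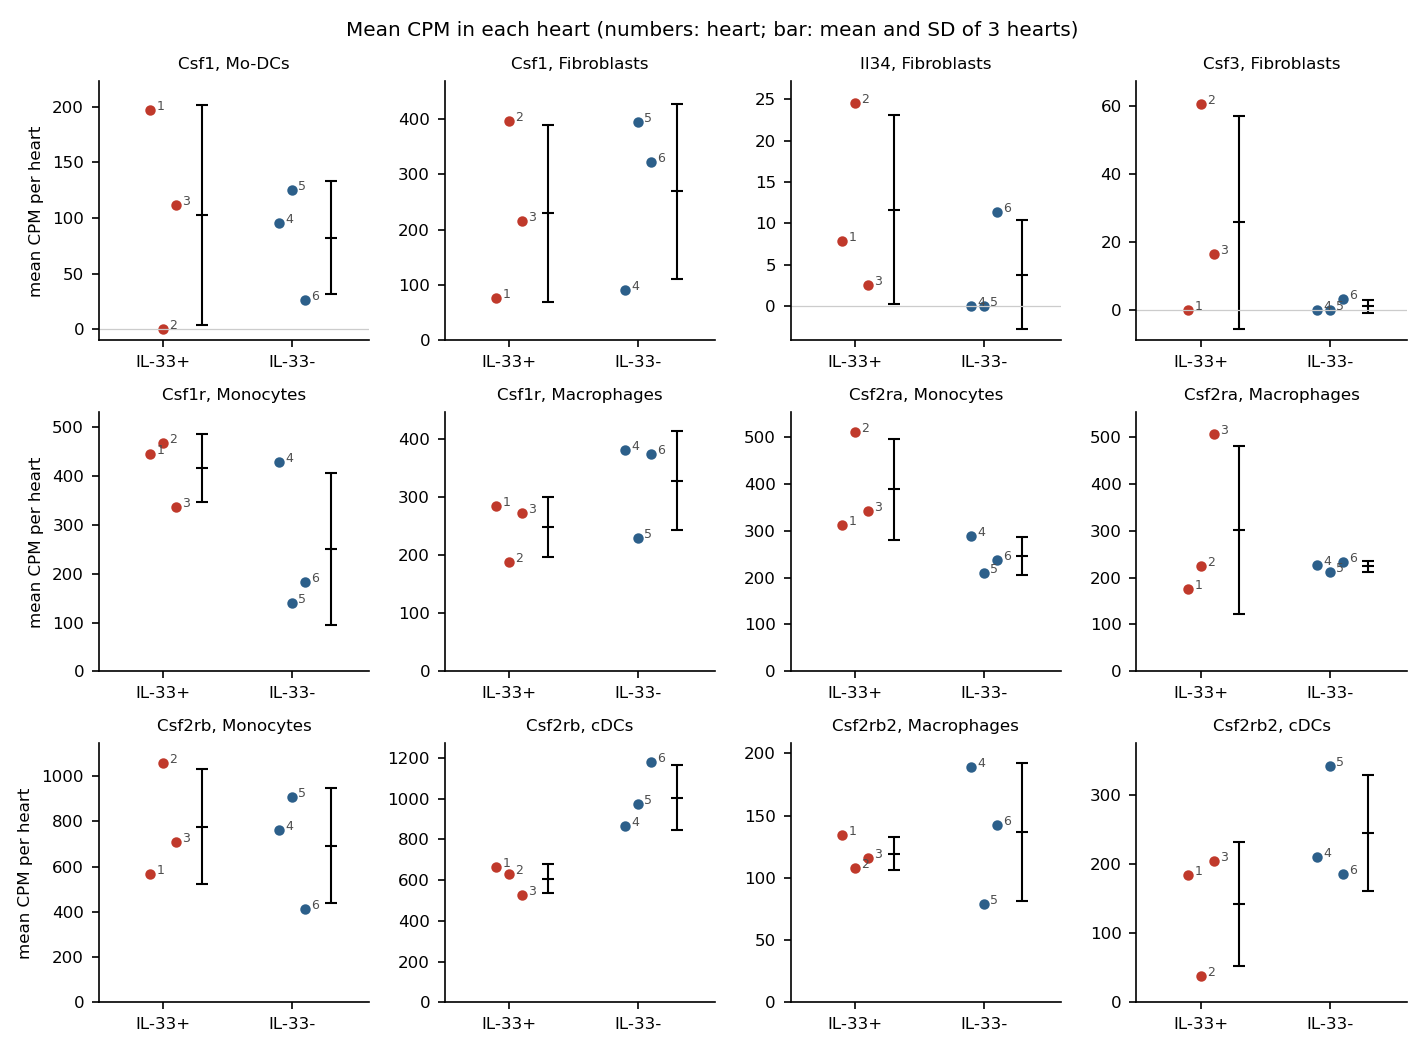
Mean CPM per heart (y axis, starting at or below 0) for the 12 pairs of gene and cell type given with fold changes; each point is a heart with its number, and the bar at the side of a group is the mean and SD of its 3 hearts. The groups lie apart for *Csf2rb* in cDCs and *Csf2ra* in monocytes and overlap in the other 10 pairs.

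Genes that work with the members were counted from 4 lists. Of 11 related ligands and receptors (*Csf3r*, *Flt3*, *Kit*, *Il3ra* and others; *Il3* was not among the gene columns), 59 pairs of gene and type were tested and 0 called, with 2 higher and 3 lower at a limma unadjusted p of 0.05 or less and a median fold change of 0.10. Of 10 JAK-STAT genes, which carry the signal of the beta chains, 135 pairs were tested and 0 called, with 9 higher and 4 lower and a median of 0.13. Of 15 genes of CSF1R signalling and myeloid regulation, 188 pairs were tested and 0 called, with 8 higher and 9 lower and a median of 0.05. Of 5 genes known to be induced by GM-CSF, 37 pairs were tested and 0 called, with 0 higher and 1 lower and a median of 0.19. The shares at an unadjusted p of 0.05 or less were 8.47%, 9.63%, 9.04% and 2.70% in this order of lists, against 4.71% of all pairs, and limma-voom called 0 pairs of each list.

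Within those lists, *Spi1* was at -0.56 in macrophages (SE 0.22, limma adjusted p = 0.99) and *Csf3r* at -1.05 (SE 0.36, limma adjusted p = 0.99), each with groups apart. In macrophages the summed neutrophil markers, a list that includes *Csf3r*, were at 2936 CPM in heart 5 and at 228 to 351 CPM in the other hearts, and the part of this in the *Csf3r* value was not tested. In cDCs, *Ccl22*, a chemokine gene of the GM-CSF list, was at -1.06 (SE 0.28, limma adjusted p = 0.34), and *Socs2*, a feedback inhibitor of JAK-STAT signalling, was at -1.55 (SE 0.47, limma adjusted p = 0.50). *Stat5a* was at 1.12 (SE 0.39, limma adjusted p = 0.62) and *Jak2* at -0.47 (SE 0.22, limma adjusted p = 0.72) in the same cells. These genes were picked from the lists after their values were seen, and none was called.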

How the data were processed

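The study's methods name Cell Ranger for the reads and Partek for the analysis, and the submitters' processing notes give the version of Partek (10.0.23.0425) and mm10; aligner settings are not given in the sources used here. The deposited values are log2(CPM + 1) per gene and cell, with the authors' cell types, hashtags and graft groups. UMIs were recovered from the steps between values within a cell, and among low values 99.94% came out whole (tolerance 0.05 UMI). Hearts were identified by hashtag and are the replicates of every test. Standard errors and p-values from limma combine the spread of a gene between hearts with a variance trend over all genes of the type. They are therefore not the spread of that gene alone, while the exact permutation p uses only its heart values.

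For each heart and type the mean CPM over cells was taken, 10 CPM were added and log2 values were fitted with limma 3.58.1 in R 4.3.3 (lmFit, eBayes with a trend) over all genes with at least 10 UMIs in the type and a UMI in at least 3 hearts, with Benjamini-Hochberg adjustment within a type. Means of the graft groups were also set against all exact permutations of the hearts, two-sided (scipy 1.17.1). No doublets were removed; an alternative left out 954 cells with at least 2 markers of each of 2 classes. Sequences came from the GRCm38 genome with GENCODE vM21 positions and from RefSeq. Per-heart values and fold changes are printed for each member in the 2 types with the highest mean among those passing the filter, and for further pairs called or with groups apart at an unadjusted p of 0.05 or less. Alternatives changed the pseudocount (1 or 50 CPM), the filter (none, or 30 UMIs), the weighting of cells (summed UMIs), the model (limma-voom), the hearts and the cells included. The members, lists and tests were chosen with earlier results of these data known.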

Additional observations from a re-analysis of the deposited data

How the results depend on the processing

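No member was called under any alternative. The count of all genes called over the 14 types was 10, and became 3 with a pseudocount of 1 CPM, 37 with 50 CPM, 67 with no filter, 1 with at least 30 UMIs, 28 with limma-voom and 20 without marked cells (the neutrophil-, basophil-, endothelial- and ILC2-marked cells, an alternative chosen after seeing the data). The marked cells left out were those of Mo-DCs, fibroblasts and Treg, so no cDC was removed. Leaving out 1 heart gave 4 (without heart 5) to 108 (without heart 1). Member pairs with groups apart numbered 4, and 8 with no filter, 10 with hearts of at least 10 cells and 7 to 11 with 1 heart left out, where fewer hearts make separation easier. Of the 12 named fold changes 6 kept their direction in every setting in which they were fitted. *Csf3* in fibroblasts was among them, with UMIs in hearts 2, 3 and 6 only. It failed the filter when any of those hearts was left out, so its direction could not be checked there. *Csf1* in fibroblasts turned to 1.41 without candidate doublets and ran from -0.88 (without heart 4) to 0.35 (without heart 1) with 1 heart left out. *Csf1* in Mo-DCs turned to 0.014 with 50 CPM, 0.51 with limma-voom, 1.37 with hearts of at least 10 cells, 0.20 without candidate doublets and 1.16 without marked cells, and ran from -1.20 to 0.99. *Il34* in fibroblasts was -0.077 and *Csf2rb* in monocytes -0.10 with limma-voom. With 1 heart left out, *Csf2rb* in monocytes ran from -0.14 (without heart 6) to 0.42, *Csf2ra* in macrophages from -0.17 (without heart 3) to 0.57 and *Csf2rb2* in macrophages from -0.43 to 0.15 (without heart 4). The causes were not tested. *Csf1r* in Mo-DCs was 174 CPM without neutrophil-marked cells. No paired analysis was possible because the hearts of the 2 groups share no replicate numbers. Types with 2 to 6 cells in a heart and genes with under about 30 UMIs set the limits of precision.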
